A study of Bubalus bubalis with 12 samples.

Results

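PNLDC1 and 7 other genes, PARN, PIWIL2, PIWIL4, TDRKH, HENMT1, PLD6 and MOV10L1, were followed in the ruminal wall of Italian Mediterranean dairy buffaloes. They are 8 of the 34037 genes in the deposited table. PNLDC1 was chosen because its level was higher in animals fed green forage, so its diet difference is given as a description and without a test. The other 7 genes were taken for their role beside it, in the making of small RNAs or in the shortening of RNA tails. Of the 8 members, 3 (PNLDC1, PARN and PIWIL2) had enough fragments to pass the filter of the fit across genes, 3 (TDRKH, HENMT1 and MOV10L1) had fewer, and 2 (PIWIL4 and PLD6) had none. The study asked which genes change in the rumen when green forage enters the diet. The 6 control animals received a total mixed ration (TMR) and the 6 treated animals a TMR that included green feed, fresh ryegrass at about 30% of the diet. All 12 were adult dairy buffaloes already due for slaughter, milked on the same farm and killed at the same time, and each gave 1 library of total RNA from unsorted wall, so that epithelium, muscle and connective tissue were measured together. In such samples fewer cells of a type and less RNA per cell cannot be told apart in any value below.

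piRNAs are small RNAs of the germ line that guide PIWI proteins to transposon transcripts. Their precursors are unwound and fed to the mitochondrial surface by the helicase MOV10L1, cut there by the endonuclease PLD6, and loaded onto a PIWI protein such as PIWIL2 or PIWIL4. The loaded fragment is then trimmed at its 3′ end by the exonuclease PNLDC1, which is recruited by the Tudor protein TDRKH, and the new end is methylated by HENMT1. PARN is the close relative of PNLDC1 in ordinary cells, where it removes poly(A) tails and matures the ends of small structured RNAs. The piRNA pathway is best known from the testis, whereas the rumen is lined by a stratified squamous epithelium.

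The libraries held 10531541 to 12948372 fragments assigned to genes, and the medians of the groups were 12414349 (control) and 12031597.5 (treated). The labelled tissue was checked against its markers. Of the squamous epithelial markers, KRT5 had mean FPKM (fragments counted on a gene, scaled by its length and by the library total) of 1436 and 1550 in control and treated animals, and DSG3 had 700.2 and 671.2, while KRT4 was low with 0.622 and 0.366. Of 8 germ cell markers, 4 (DAZL, STRA8, DDX4 and BOLL) were listed at 0 in all 12 animals. Only TEX14 among these markers, with at most 87 fragments in an animal, exceeded 20 fragments anywhere. The summed FPKM of the 8 germ cell markers was 0.799 to 1.03 in controls and 0.641 to 1.15 in treated animals.

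PNLDC1 (gene 102411464) was detected in every animal. Its FPKM had a lowest value of 1.11, a median of 1.65 and a highest of 2.12 in controls, and of 2.05, 3.14 and 4.05 in treated animals. All treated animals but replicate 4, 5 of 6, exceeded the highest control, and treated replicate 4 lay below the 2 highest controls, replicates 2 and 3. The group means were 1.64 ± 0.426 FPKM (SD, n = 6) in controls and 3.08 ± 0.685 FPKM (SD, n = 6) in treated animals, a ratio of 1.87. As a difference of mean log2(FPKM + 0.01), treated minus control, this was 0.91 with a standard error of 0.22. At least 5 treated animals above every control were found for 0.357% of the 12620 genes tested, and groups that did not overlap at all for 0.0555%. A nominal limma p-value below 0.05 was given to 0.784% with a higher treated mean and to 0.452% with a lower one. Since PNLDC1 was chosen on this contrast, nothing is read from its place among those genes.

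The values rest on 122 to 237 fragments per animal in controls, 1032 in all, and on 214 to 420 in treated animals, 1934 in all. The gene length that the steps of the FPKM values imply is 8634 bases, longer than that of 94.9% of the 22970 genes for which a length could be worked out. For such a gene 1 fragment in the median library is worth 0.00961 FPKM. Within a group, the SD of log2(FPKM + 0.01) of PNLDC1 was 0.36, against a median of 0.46 over the 1603 genes tested with a similar mean. When each animal was left out in turn, the log2 difference stayed between 0.81 and 1.02.

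Markers of the stroma had lower means in treated animals, most of them short of the test. The summed FPKM of 6 smooth muscle markers had a median of 22.8 (13.1 to 31.2) in controls and 11.6 (4.28 to 23.1) in treated animals, and that of 6 fibroblast markers had medians of 95.6 (40.8 to 258.5) and 86.1 (17.5 to 171.8). Of the 10 stromal markers tested, all 10 had a lower mean log2 FPKM in treated animals, and DES, the intermediate filament of muscle, was the only marker with a nominal limma p-value below 0.05. A score of these genes was -1.86 and -1.14 in treated replicates 1 and 2, below every control (-0.47 to 1.09). In the other treated animals it ran from -0.24 to 0.68, within the range of the controls. With this score as a covariate, the log2 difference of PNLDC1 was 0.87 with a standard error of 0.25. The 7 epithelial markers found in the table had summed medians of 3428 FPKM in controls and 3711 in treated animals, and none passed the nominal test. This fit uses the contrast on which PNLDC1 was chosen, and the part of the makeup of the samples in the level of PNLDC1 was not tested.

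**Figure D1:**
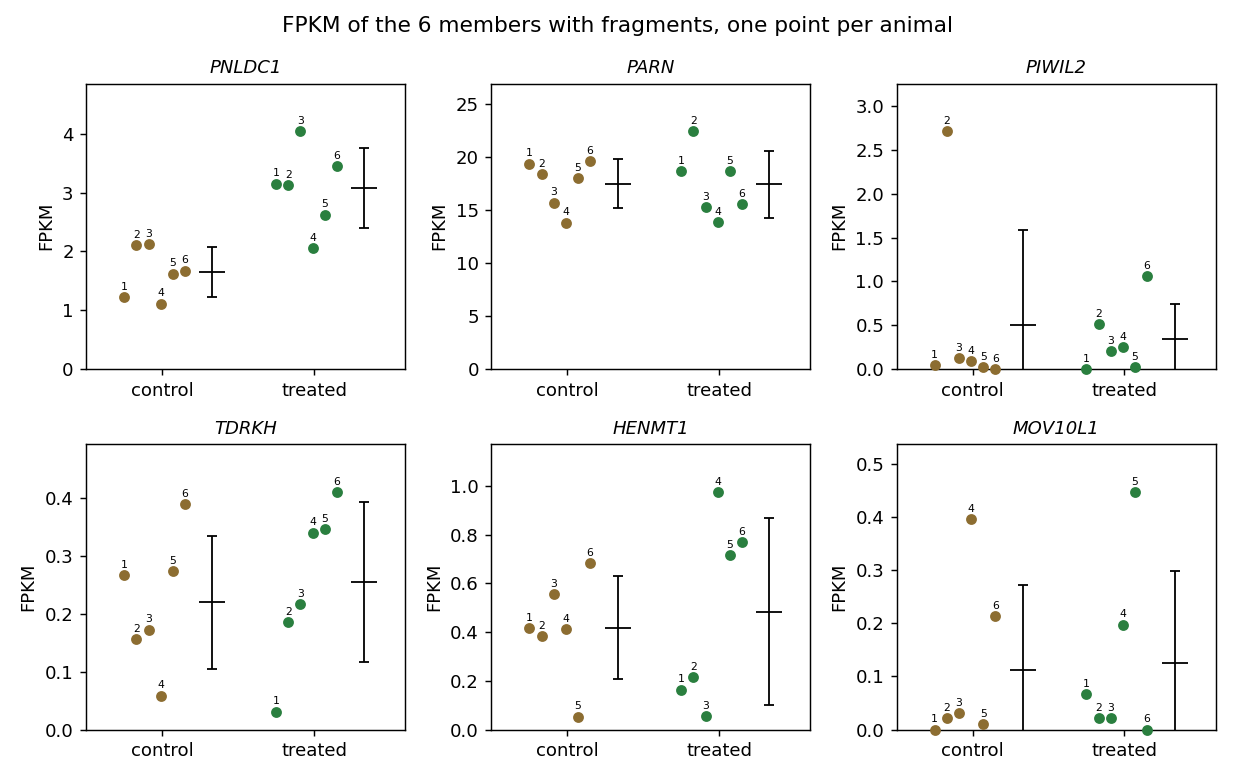
FPKM (y axis) of the 6 genes with at least 1 fragment in the 6 control and 6 treated animals; each point is an animal with its replicate number, and the bar to the right is the mean with the SD (cut off at 0). For PNLDC1, 5 of 6 treated animals lie above every control, while the groups overlap throughout for PARN at means of 17.5 and 17.4 FPKM, and control replicate 2 alone stands at 2.72 FPKM for PIWIL2.

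PARN (gene 102391386), the poly(A) ribonuclease of the same family, was the most abundant of the 8 genes, and its difference between the diets did not pass the test. Its FPKM were 13.8, 18.2 and 19.6 (lowest, median and highest) in controls and 13.85, 17.1 and 22.4 in treated animals, on 514 to 830 fragments per animal. The groups overlapped, with treated replicate 2 the highest and control replicate 4 and treated replicate 4 the lowest. The means were 17.5 ± 2.28 and 17.4 ± 3.13 FPKM (SD, n = 6 each), a log2 difference of -0.02 with a standard error of 0.14 (limma nominal p = 0.914, adjusted p = 0.9997; exact permutation p = 0.890). Per length, the PARN mean was 10.6 times that of PNLDC1 in controls and 5.65 times in treated animals. Within single animals, PNLDC1 stood at 9.49% ± 2.59 (SD, n = 6) of the PARN level in controls, from 6.29% to 13.5%, and at 18.1% ± 5.18 (SD, n = 6) in treated animals, from 13.95% to 26.6%. These ratios carry the contrast on which PNLDC1 was chosen and are not tested.

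Of the PIWI proteins, which hold the piRNA, PIWIL2 (gene 102407282) had fragments in 10 of 12 animals, most of them in a few, and PIWIL4 (gene 102398752) had none. PIWIL2 had 120 fragments in control replicate 2, 50 in treated replicate 6 and 23 in treated replicate 2. The lowest, median and highest FPKM were 0, 0.0640 and 2.72 in controls and 0, 0.224 and 1.06 in treated animals. Control replicate 2 held 52.9% of all PIWIL2 fragments, and the other 5 controls had at most 6 each. The mean FPKM was higher in controls (0.499 ± 1.09 against 0.341 ± 0.398; SD, n = 6 each), whereas the mean log2 FPKM was higher in treated animals, by 0.68 with a standard error of 1.36 (limma nominal p = 0.6246, adjusted p = 0.9997; exact permutation p = 0.6645). The log2 difference was -0.0028 with a pseudocount of 1 in place of 0.01, and 1.66 without control replicate 2, so that the size of the difference moved with single animals and its sign with the pseudocount. PIWIL4 was at 0 fragments in all 12 animals, where a count of 0 allows up to 3 fragments per library.

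The genes of the proteins that act directly beside PNLDC1 had low RNA levels in both groups. TDRKH (gene 102390158), the mitochondrial anchor that recruits the trimmer, had 1 to 14 fragments per animal. Its FPKM were 0.0588, 0.220 and 0.3896 in controls and 0.0312, 0.279 and 0.410 in treated animals, and treated replicate 1 held the lowest and treated replicate 6 the highest value. The means were 0.220 ± 0.115 and 0.255 ± 0.1385 FPKM (SD, n = 6 each; log2 difference 0.09; exact permutation p = 0.870). HENMT1 (gene 102413353), the methyltransferase that acts on the trimmed end, had 1 to 18 fragments per animal. Its FPKM were 0.0533, 0.414 and 0.683 in controls and 0.0544, 0.467 and 0.976 in treated animals. In the treated group replicates 4, 5 and 6 were above every control and replicates 1, 2 and 3 were below 5 of the 6 controls, so the treated animals were spread over a wider range than the controls. The means were 0.4175 ± 0.211 and 0.483 ± 0.384 FPKM (SD, n = 6 each; log2 difference -0.05; exact permutation p = 0.959).

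The genes of the enzymes upstream of trimming had lower mean FPKM still. MOV10L1 (gene 102406306), the helicase that hands over piRNA precursors, had 38 fragments in control replicate 4, 40 in treated replicate 5, 17 in control replicate 6 and 18 in treated replicate 4, and at most 6 in each of the other animals. Its FPKM were 0, 0.0265 and 0.396 in controls and 0, 0.0442 and 0.447 in treated animals. The means were 0.112 ± 0.160 and 0.126 ± 0.173 FPKM (SD, n = 6 each; log2 difference 0.26; exact permutation p = 0.831). The animals with the most MOV10L1 were not those with the most PIWIL2. PLD6 (gene 102393205), the nuclease that cuts precursors on mitochondria, was at 0 fragments in all 12 animals. Beside such zeros, 12 genes used by all cells were looked up. Of these, 11 were found by symbol, and none of the 11 was at 0 in any animal. The lowest value was 3.23 FPKM, for TBP, while B2M was not found by symbol and gives no value. Genes so widely used could hardly be at 0, so the lookup does not tell why PLD6 and PIWIL4 were. Of all 34037 genes, 11065 were at 0 in all 12 animals.

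As means over the 12 animals, the levels per length were 17.4 FPKM for PARN, 2.36 for PNLDC1, 0.450 for HENMT1, 0.420 for PIWIL2, 0.237 for TDRKH and 0.119 for MOV10L1, with PIWIL4 and PLD6 at 0. Since the order was read from these same animals, and the PNLDC1 values are those it was chosen on, the order is a description with no test. PARN was above PNLDC1 in 12 of 12 animals, by 2.97 ± 0.61 in log2(FPKM + 0.01) (SD, n = 12). PNLDC1 was above HENMT1 in 12 of 12 animals as well, by 2.69 ± 1.58 (SD, n = 12). It was below PIWIL2 in control replicate 2, with 2.11 against 2.72 FPKM. The place of PIWIL2 in the order rests on that animal, without which its mean was 0.211 FPKM, below that of TDRKH, an alternative chosen after seeing the data. In controls the mean of PIWIL2 (0.499 FPKM) was above that of HENMT1 (0.4175 FPKM), and in treated animals it was below (0.341 and 0.483 FPKM). Within animals HENMT1 was above PIWIL2 in 8 of 12, by 1.56 ± 2.70 in log2(FPKM + 0.01), and PIWIL2 was above TDRKH in 4 of 12, with a mean difference of -0.84 ± 2.56 (SD, n = 12 each). TDRKH was above MOV10L1 in 9 of 12 animals, by 1.81 ± 2.35 (SD, n = 12). Among HENMT1, PIWIL2, TDRKH and MOV10L1, the mean difference between neighbours was thus smaller than its SD over the animals.

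Of the members other than PNLDC1, none that was tested passed a test of the diet difference. Of the 7 genes beside PNLDC1, 5 had fragments, and for 0 of the 5 was a nominal p-value below 0.05 by the exact permutation test, in the limma fit of the 12620 genes tested (PARN and PIWIL2) or in a limma fit of all 22972 genes above 0. In the first fit 1.24% of the genes, 156 in all, had a nominal p-value below 0.05, and in the second 2.45% (1.18% with a higher and 1.27% with a lower treated mean). In neither fit did a gene have an adjusted p-value below 0.05. The shares of 1.24% and 2.45% are smaller than a threshold of 0.05 would give by chance alone. They are therefore not read as a rate of diet effects.

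The wider piRNA pathway was described with a list of 35 genes, all of them in the table. Of these, 10 were at 0 in all animals, among them PIWIL1, the helicase DDX4, MAEL, RNF17, TEX15 and MORC1, and 20 had a mean below 0.1 FPKM. A mean above 1 FPKM was reached by 7 genes. Besides PNLDC1 these were PRMT5 (15.8 FPKM) and WDR77 (5.15 FPKM), which together methylate arginines of PIWI and of many other proteins, TDRD7 (4.31 FPKM), a Tudor protein also of the lens, the transcription factors TCFL5 (3.20 FPKM) and MYBL1 (1.92 FPKM), and DNMT3L (1.14 FPKM), a cofactor of DNA methylation. Except for PRMT5 and WDR77, these genes were named after their values were seen.

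Apart from PNLDC1, 6 genes of this list had enough fragments for the limma fit. A nominal p-value below 0.05 was given to 0 of the 6, against 1.24% of all 12620 genes tested. So few genes cannot tell 0 calls from that share. The log2 differences of the 6 genes had a median of 0.05, against 0.01 over all genes tested. They ran from -0.05 for TCFL5 to 0.68 for PIWIL2. PRMT5 had 15.45 ± 3.42 (control) and 16.1 ± 2.78 FPKM (treated; SD, n = 6 each; log2 difference 0.07 with a standard error of 0.16; limma adjusted p = 0.9997). WDR77 had 5.12 ± 1.05 and 5.18 ± 0.776 FPKM (SD, n = 6 each; log2 difference 0.03; limma adjusted p = 0.9997). MYBL1, the activator of piRNA clusters in the testis, had 1.90 ± 0.446 and 1.93 ± 0.521 FPKM (SD, n = 6 each; log2 difference 0.01; limma adjusted p = 0.9997).

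**Figure D2:**
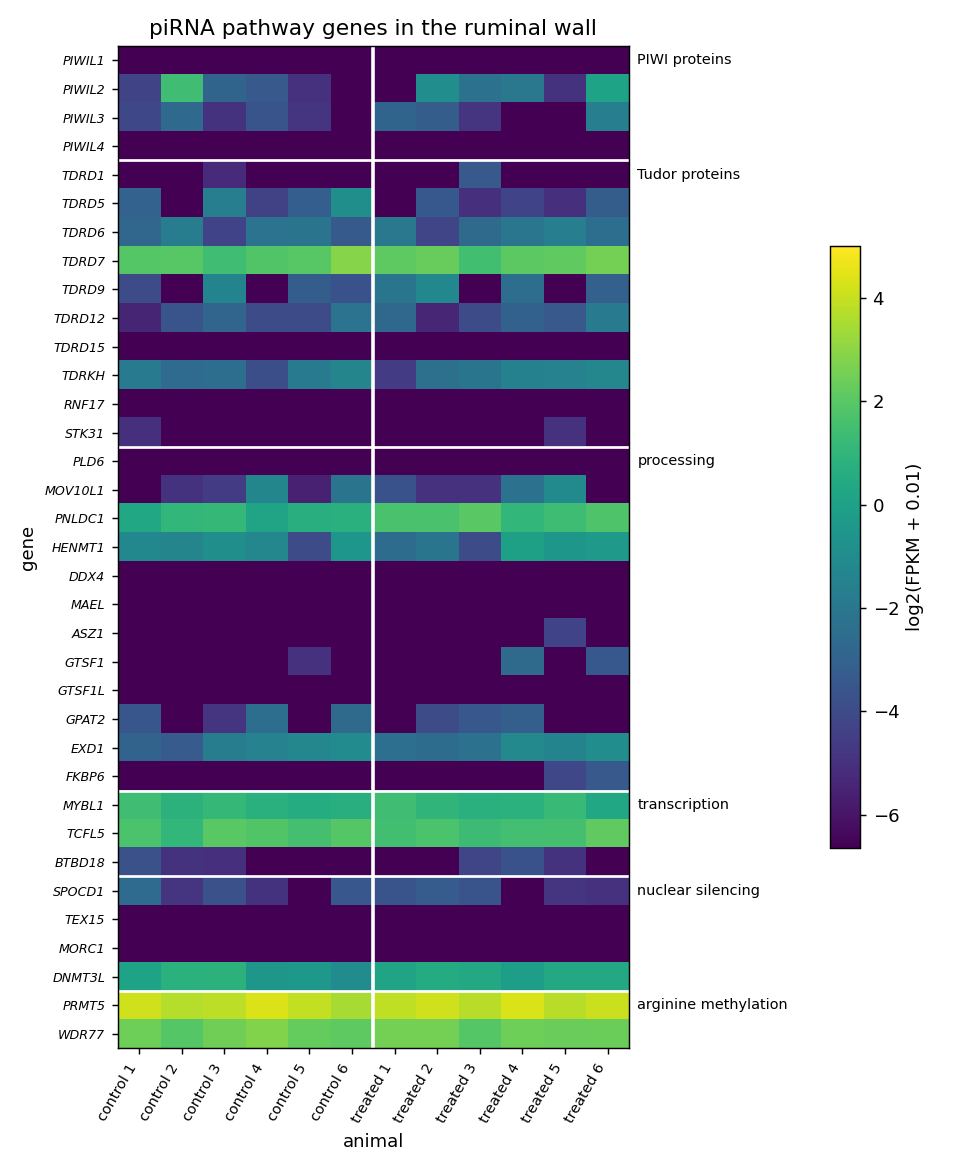
Level of the 35 genes of the piRNA list (rows, grouped by role) in the 6 control and 6 treated animals (columns), as log2(FPKM + 0.01) in colour; the darkest colour is 0 FPKM. The row of PNLDC1 is filled in every animal, whereas PLD6, DDX4, MAEL and PIWIL4 are at 0 throughout and the rows of PIWIL2 and MOV10L1 are brightest in control replicate 2 and in treated replicate 5.

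PNLDC1 belongs to the ribonucleases that shorten poly(A) tails and small RNA ends, and these were compared as a second list. All 18 genes of the list passed the filter, with means above 1 FPKM. Of the 17 genes other than PNLDC1, 0 had a nominal p-value below 0.05 in either direction, against 1.24% of all 12620 genes tested. The list is too short to tell 0 calls from that share. The log2 differences of the 17 genes ran from -0.15 to 0.19 with a median of -0.02. CNOT7, a catalytic subunit of the CCR4-NOT deadenylase, was the most abundant with 48.2 ± 5.53 (control) and 46.2 ± 6.66 FPKM (treated; SD, n = 6 each; log2 difference -0.06 with a standard error of 0.11; limma adjusted p = 0.9997). PARN came second. ANGEL1, named after its values were seen as the gene whose mean in controls was nearest to that of PNLDC1, had 1.67 ± 0.478 and 1.68 ± 0.361 FPKM (SD, n = 6 each; log2 difference 0.03; limma adjusted p = 0.9997).

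In the machinery of miRNAs, the small RNA pathway that all cells use, 11 of the 13 listed genes were found by symbol and 10 were tested. None of the 10 had a nominal p-value below 0.05, against 1.24% of all 12620 genes tested, and the median log2 difference of the 10 was 0.02. DICER1, which cuts miRNA precursors, had 18.9 ± 1.95 (control) and 18.2 ± 2.497 FPKM (treated; SD, n = 6 each; log2 difference -0.06; limma adjusted p = 0.9997). AGO2, which holds the miRNA, had 10.6 ± 0.601 and 11.6 ± 2.02 FPKM (SD, n = 6 each; log2 difference 0.12; limma adjusted p = 0.9997). Without control replicate 6, DROSHA, the nuclear enzyme of the same pathway, passed the nominal threshold, and 1 of the 10 genes was then called, as were 200 of the 12620 genes tested, against 156 with all animals.

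**Figure D3:**
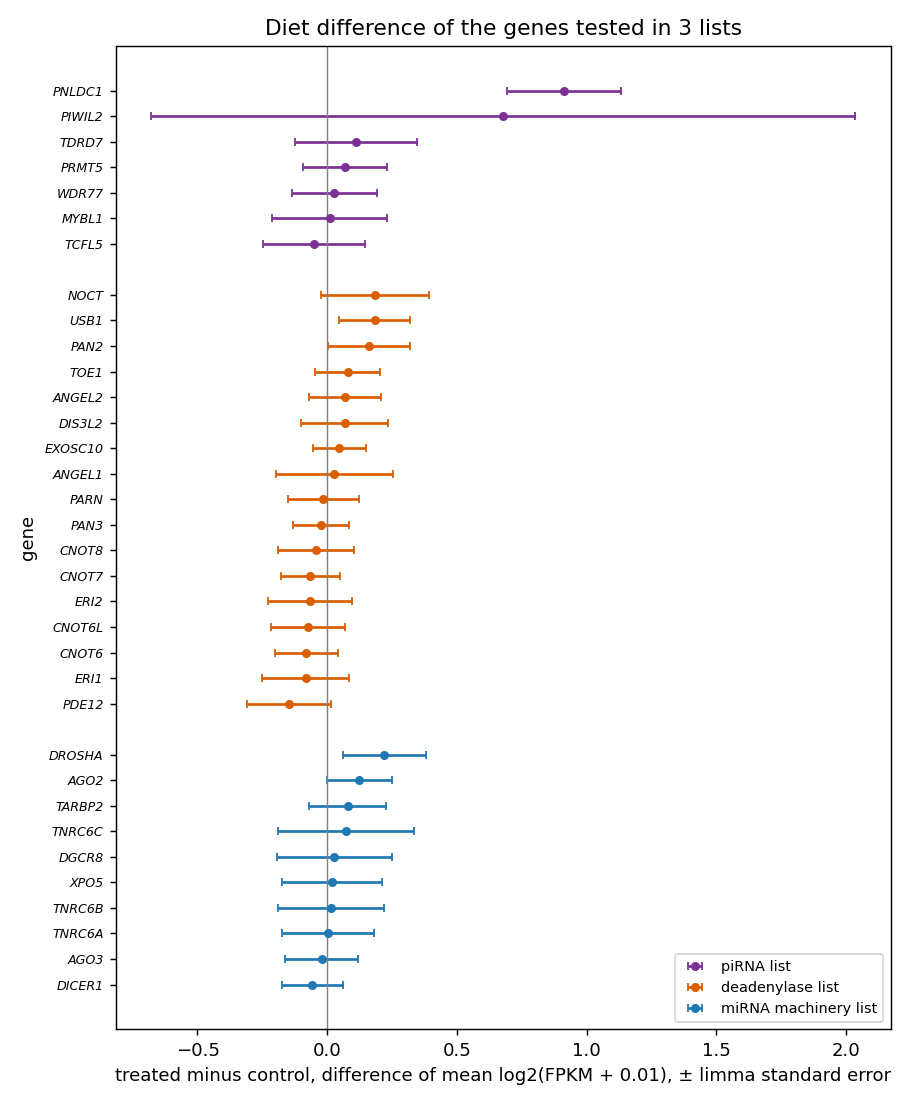
Difference between treated and control animals in mean log2(FPKM + 0.01) (x axis) with its limma standard error for the genes of 3 lists that were tested. PNLDC1 at 0.91 was chosen for this difference, and the genes of the deadenylase list other than PNLDC1 lie between -0.15 and 0.19.

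The genes next to PNLDC1 were looked up in the order of the RefSeq annotation of the NDDB_SH_1 assembly, which is not the build of the alignment, so that no coordinates are given. On one side lie MAS1, IGF2R and SLC22A2, and on the other MRPL18, TCP1 and ACAT2, counting protein-coding genes with a symbol. MAS1 and SLC22A2 were at 0 in all 12 animals. IGF2R, the receptor that carries lysosomal enzymes, had 18.8 ± 3.885 and 17.7 ± 6.01 FPKM in control and treated animals (SD, n = 6 each; log2 difference -0.15; limma adjusted p = 0.9997). MRPL18, a protein of the mitochondrial ribosome, had 36.9 ± 8.78 and 33.95 ± 3.89 FPKM (SD, n = 6 each; log2 difference -0.08; limma adjusted p = 0.9997). TCP1, a subunit of the chaperonin that folds actin and tubulin, had a log2 difference of 0.08 (limma adjusted p = 0.9997), and ACAT2, an acetoacetyl-CoA thiolase, one of -0.17 (limma adjusted p = 0.9997). The 4 neighbours with fragments thus had differences between -0.17 and 0.08, and none passed the nominal test.

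The genes whose levels within the groups were most like those of PNLDC1 were listed as a description. The likeness was measured as the correlation of log2(FPKM + 0.01) after the mean of each group was subtracted, over the 12 animals and 10919 tested genes with a symbol, and the 5 genes named have the highest values of all of these, so that no p-value is given and high values are set by the choice. RTN4, a protein of the tubular endoplasmic reticulum, came first with a Pearson r of 0.922 and a Spearman rho of 0.881, and r was 0.835 without the 2 animals farthest from the median of PNLDC1. CXADR, a cell adhesion protein of epithelial junctions, followed with r = 0.920 (rho = 0.860; r = 0.827 without these animals). LRRC66, ZNF575 and SLC31A1, the last of which takes up copper, had r = 0.854, 0.839 and 0.799. These 5 genes had log2 differences between the diets of -0.20 to 0.41, and none passed the nominal test. For PARN the correlation with PNLDC1 was r = 0.206 (rho = 0.0350), and it was -0.569 without the 2 farthest animals, so that its sign rests on those animals. For the other members with fragments, r was 0.296 (PIWIL2), 0.0156 (TDRKH), -0.360 (HENMT1) and -0.461 (MOV10L1). Without the 2 farthest animals, r was 0.512, -0.185, -0.195 and -0.116 for these genes, in the same order.

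**Figure D4:**
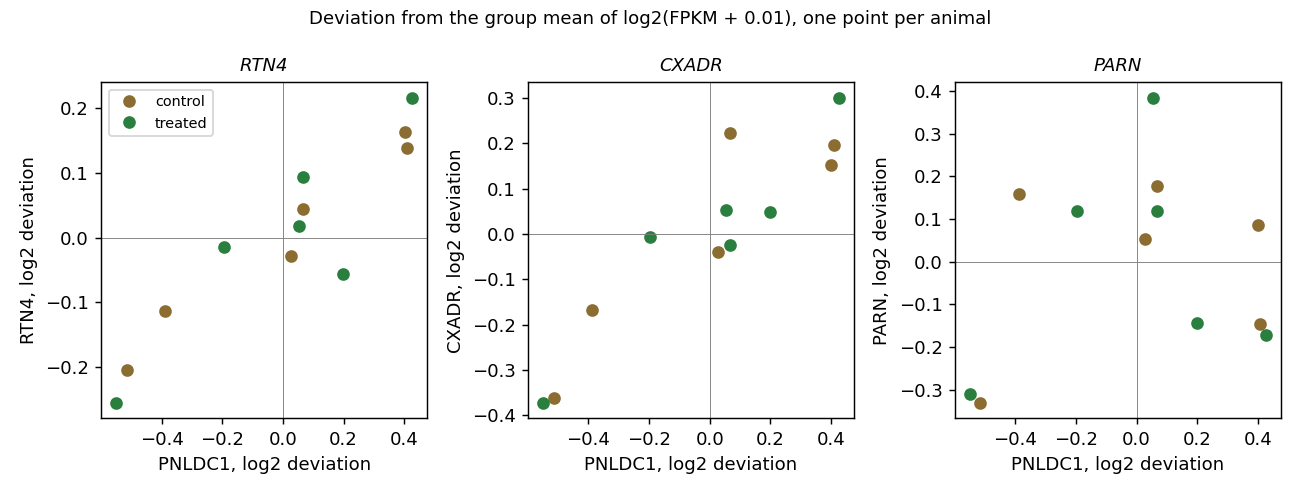
Deviation of each animal from its group mean in log2(FPKM + 0.01) for PNLDC1 (x axis) and for RTN4, CXADR and PARN (y axes); each point is an animal, coloured by group. RTN4 and CXADR were picked for their likeness to PNLDC1 (r = 0.922 and 0.920), and PARN is shown beside them (r = 0.206).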

How the data were processed

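The authors trimmed the reads with Trimmomatic 0.39, aligned them to UOA_WB_1 with STAR 2.5.2b and counted fragments per gene and strand with featureCounts 2.0.0. They deposited FPKM, whose tool and gene lengths are not given in the sources used here. The table holds 16 columns, of which 12 matched sample titles and 4 were not used. For a given gene all FPKM are multiples of what 1 fragment is worth, from which library totals, lengths and fragments were worked out for 22970 of 22972 genes above 0. Each of the 66 pairs of libraries differed by more than sampling noise (chi-square per gene at least 15.7).

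The 12620 genes with at least 42 fragments, scaled to the median library, in at least 1 animal were tested with limma 3.58.1 in R 4.3.3 on log2(FPKM + 0.01), with a variance trend and Benjamini-Hochberg adjustment. The calls of the study rest on nominal p-values, which are therefore given too. Single genes were tested by a two-sided exact permutation test over 924 assignments (smallest p 0.00216). A p-value covers the spread between these animals and no more. On the log2(FPKM + 0.01) scale, differences of low genes depend on the pseudocount and on animals near 0. They can be smaller or larger than the ratio of the means implies, or of the other sign, as for PIWIL2. Levels were worked out with Python 3.11.15.

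Named were the 8 members, list genes with a nominal p below 0.05, the 2 most abundant genes of each list, up to 3 neighbours a side and the 5 genes most like PNLDC1. Members and lists were chosen with earlier results of these data known. The alternatives were pseudocounts of 0.1 and 1, all genes above 0, at least 0.1 FPKM in 6 animals, median ratio scaling, limma voom on the fragments, the replicate number as a block, a stromal score as covariate and each animal left out. The method was tested on simulated data.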

Additional observations from a re-analysis of the deposited data

Results flagged for a closer look

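PIWIL2 in control replicate 2 stood at 2.72 FPKM, on 120 fragments, while the other 5 controls were between 0 and 0.125 FPKM; this gap is 0.954 of the range of the group. ACAT2, a neighbour of PNLDC1, was at 61.2 FPKM in control replicate 4, against 36.4 to 45.4 FPKM in the other controls. These are the animals that lay far from the rest among 40 groups of 6 that were checked, where chance gives about 1 in 20.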

How the results depend on the processing

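The log2 difference of PNLDC1 kept its direction under all 20 alternatives and moved by less than the SD between animals, with values from 0.62 (pseudocount of 1) to 0.92 (voom) and from 0.81 to 1.02 with each animal left out. With the replicate number as a block it was 0.91 with a standard error of 0.16. The number of genes with a nominal p-value below 0.05 was 156, and it became 562 with all genes above 0, 301 with a filter of 0.1 FPKM in 6 animals, 320 with the replicate block and 354 with the stromal score, while leaving out animals gave 142 to 328, the highest without treated replicate 6. The first 2 test other genes, and for the rest the cause was not tested. Same-numbered animals had a mean correlation of 0.211 in their deviations, over 0.1 in 4 of 6 pairs, against -0.0388 for differently numbered animals. The sample labels and the paper name no pairing by number, so the main fit used none. Whether the numbers mark something that the animals shared was not tested. PNLDC1 was left out of the counts of calls among the members and in the lists, but not of the counts over all genes. PARN and PIWIL2 did not pass the nominal test under any of the 20 alternatives, and TDRKH, HENMT1 and MOV10L1 did not under the 17, 17 and 16 that gave them a value, which leave out voom, the block and the stromal score and, for MOV10L1, the filter of 0.1 FPKM in 6 animals. Of the piRNA and deadenylase lists, no gene that an alternative tested passed, and in the miRNA list leaving out animals gave 0 to 1. The small differences of the other members changed sign: PIWIL2 to -0.0028 and HENMT1 to 0.0388 with a pseudocount of 1. With animals left out, the range was -0.092 to 0.0467 for PARN, 0.04 to 1.66 for PIWIL2, -0.22 to 0.57 for TDRKH, -0.54 to 0.425 for HENMT1 and -0.30 to 0.85 for MOV10L1. For TDRKH, HENMT1 and MOV10L1, at most 40 fragments per animal limit what can be seen.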

Other observations

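Several genes of the piRNA list were too low to be tested, and those given here were named after their values were seen. TDRD5, a Tudor protein of male germ cells, had 52 fragments in controls, 23 of them in 1 animal, and 13 in treated animals, with means of 0.183 ± 0.203 and 0.0435 ± 0.0381 FPKM (SD, n = 6 each). PIWIL3, a PIWI protein, had 13 and 23 fragments, and 1 treated animal held 13 of the 23. GTSF1, a small zinc finger partner of PIWI proteins, had 1 and 11, and 1 treated animal held 7 of the 11. EXD1, a partner of TDRD12 in piRNA biogenesis, was above 0 in 12 of 12 animals with 0.289 ± 0.155 (control) and 0.311 ± 0.149 FPKM (treated; SD, n = 6 each). In the limma fit of all genes above 0, no gene named here was below a nominal p-value of 0.05.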
